A study of Mus musculus with 60 samples.

Results

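The rapid immediate early genes are 10 genes that neurons switch on within minutes of activity: Arc, Fos, Fosb, Junb, Egr1, Egr2, Egr3, Egr4, Nr4a1 and Npas4. They were taken by name, 1 table row each, from a table of 18088 genes. All 10 passed the filter on low values that left 17804 genes for testing. The table holds RNA of the prefrontal cortex of C57BL/6J mice at postnatal day 25. The mice carried the label HT or WT for Trip12, an E3 ubiquitin ligase gene, and received fluoxetine (a serotonin reuptake inhibitor), lithium (a mood stabiliser) or vehicle through the milk of the dam from postnatal day 3 to 24. With both sexes this gave 12 groups of 5 libraries, 60 in all: fluoxetine, lithium and vehicle in HT males and HT females, and the same in WT males and WT females.

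Trip12 RNA averaged 6186 ± 323 normalized counts in the 30 HT libraries and 5740 ± 401 in the 30 WT libraries (SD), a log2 difference of 0.11 ± 0.02 (SE, limma adjusted p = 0.00137). Trip12 RNA was thus higher in libraries labelled HT, the labels do not describe the allele, and HT and WT below mean libraries so labelled. No label ties a library to an animal or a litter, and p-values therefore reflect only how these libraries vary. Depth, in M reads, ran from 25.1 to 36.6 and followed treatment: fluoxetine libraries held 32.65 to 36.62 M reads and vehicle libraries 26.59 to 30.99 M reads. Lithium libraries held 32.09 to 35.86 M reads in females, above every vehicle library. In lithium males they held 25.14 to 33.47 M reads, which overlapped vehicle. Libraries WT fluoxetine male 2 and HT vehicle male 1 stood apart over all genes, with median absolute deviations from their group means of 0.194 and 0.183 on the log2 scale, against a median of 0.0985 over the 60 libraries.

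An excitatory input that raises calcium in a neuron activates kinases that phosphorylate transcription factors already bound to immediate early promoters, chiefly CREB at cAMP response elements and serum response factor at CArG boxes, so these genes need no new protein to start. Most of them encode transcription factors: the Fos and Jun proteins pair to form AP-1, the Egr proteins are zinc-finger factors, Nr4a1 is an orphan nuclear receptor, and Npas4 is a neuron-specific factor that responds selectively to calcium entry. Arc acts at the synapse itself, where it promotes removal of AMPA receptors, and its RNA is widely used as a marker of recently active cells.

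RefSeq promoters (GRCm38.p6) were searched for 7 of the 10 genes, all but Arc, Egr1 and Egr3. Egr1 was left out of the search, so its absence here does not mean that it has no promoter entry. The motif counts below say nothing about these 3 genes. The half-site of the cAMP response element is shown for Fos, Junb, Nr4a1 and Npas4, genes whose RNA was lower with fluoxetine and that have 1 promoter entry each. It does not mark out the lowered genes, since Fosb and Egr4, which were not called, hold it too. The 250 bases before each start are given 5′ to 3′ on the strand of the gene, with the half-site TGACG, or its reverse complement CGTCA, in capitals. They lie at chr12:85473640-85473889 on the plus strand for Fos, chr8:84978749-84978998 on the minus strand for Junb, chr15:101266596-101266845 on the plus strand for Nr4a1 and chr19:4989972-4990221 on the minus strand for Npas4.
Fos: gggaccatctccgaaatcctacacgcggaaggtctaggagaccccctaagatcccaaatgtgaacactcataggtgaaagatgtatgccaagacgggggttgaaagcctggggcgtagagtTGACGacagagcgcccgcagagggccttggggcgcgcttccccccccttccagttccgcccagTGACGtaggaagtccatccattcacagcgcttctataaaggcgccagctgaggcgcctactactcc
Junb: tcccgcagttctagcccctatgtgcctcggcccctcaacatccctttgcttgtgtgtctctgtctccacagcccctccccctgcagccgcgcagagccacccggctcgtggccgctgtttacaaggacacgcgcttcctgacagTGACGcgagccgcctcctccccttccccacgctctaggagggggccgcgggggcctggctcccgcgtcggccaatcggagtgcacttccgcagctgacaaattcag
Nr4a1: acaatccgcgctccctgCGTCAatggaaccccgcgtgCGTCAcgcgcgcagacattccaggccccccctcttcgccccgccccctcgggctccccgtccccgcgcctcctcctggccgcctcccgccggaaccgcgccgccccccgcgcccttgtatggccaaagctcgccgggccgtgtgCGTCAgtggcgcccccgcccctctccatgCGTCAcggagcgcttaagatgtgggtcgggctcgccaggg
Npas4: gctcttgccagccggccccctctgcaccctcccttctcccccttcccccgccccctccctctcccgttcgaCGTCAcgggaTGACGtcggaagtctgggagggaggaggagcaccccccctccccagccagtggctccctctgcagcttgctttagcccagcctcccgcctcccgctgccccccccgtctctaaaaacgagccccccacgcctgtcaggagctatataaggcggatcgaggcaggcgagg
In the whole window of 300 bases, which also takes in the first 50 transcribed bases, Nr4a1 held 4 half-sites, Fos, Npas4 and Egr4 held 2 each, and Junb and Fosb held 1 each. Egr2 had 5 promoter entries, and 3 of them held the half-site. These 3 windows overlap and hold the same 2 half-sites. All 7 searched genes thus had a half-site in at least 1 window, while 23.0% of 27025 mouse genes did, and 20.8% of 32851 single promoters. In Fos the half-sites began at positions -129 and -66 from the start. The full palindrome TGACGTCA was found in 0 of the 7 genes and in 1.79% of all promoters. A CArG box was found, on either strand, in 4 of the 5 Egr2 windows and in no window of the other 6 genes searched. In the 3 overlapping Egr2 windows this was the same box, counted once per window. A CArG box was found in 1.63% of all promoters. These matches describe the letters in the window only.

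The genes lie on 9 chromosomes of GRCm38, with Arc (chr15:74669083-74672570, minus strand) and Nr4a1 (chr15:101254269-101274795, plus strand) on the same one. Junb overlaps 1 gene on the other strand, Prdx2, and none of the other 9 overlaps an annotated gene. The strand setting of the counting is not given in the sources used here, so reads of Junb and Prdx2 in the overlap may not have been told apart. Per kilobase of exon, mean normalized counts over the 60 libraries were highest for Egr1 (1870), Arc (1600) and Egr3 (1030). Nr4a1 had 714.5 normalized counts per kilobase, Junb 639.4, Fos 419.6 and Egr4 406.9. The lowest levels per kilobase were those of Npas4 (175.2), Egr2 (96.63) and Fosb (86.33). The labels name no stimulus before the tissue was taken.

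**Figure D1:**
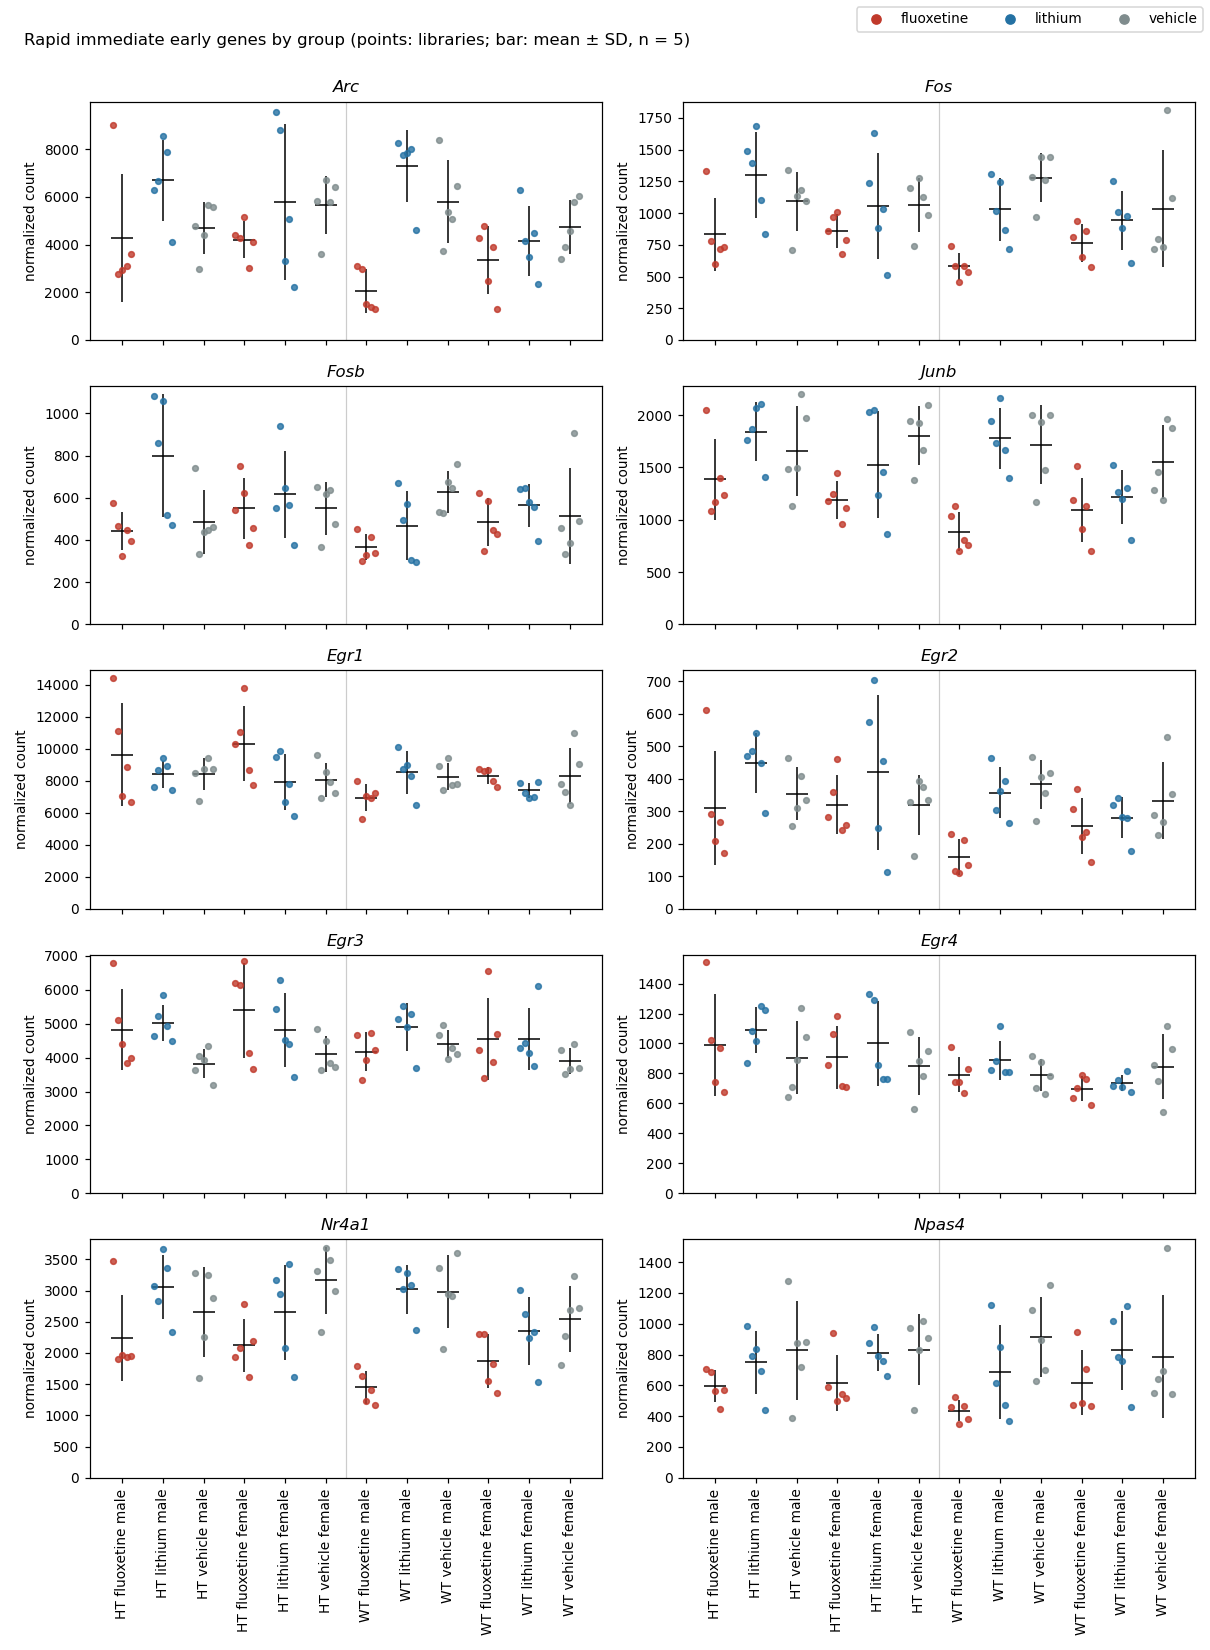
Normalized counts of the 10 genes (vertical axes, linear, from 0) in the 12 groups, with 5 libraries per group as points and the mean and SD as a bar. The WT fluoxetine male group had the lowest mean for 8 of the 10 genes, and library HT fluoxetine male 1 was far above the other 4 of its group for Arc, Fos, Egr2 and Nr4a1.

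Across the 12 groups the genes shared much of their order. The WT fluoxetine male group had the lowest mean of all groups for 8 of the 10 genes, and the HT lithium male group had the highest for 5. Arc averaged 2059 ± 908 normalized counts in WT fluoxetine males, its lowest group, and 7296 ± 1510 in WT lithium males, its highest (SD, n = 5 each). Egr3 departed from this order: its highest mean was in HT fluoxetine females (5396 ± 1400) and its lowest in HT vehicle males (3827 ± 432). Egr1 also had its highest mean in HT fluoxetine females (10320 ± 2350), but its lowest in WT fluoxetine males (6959 ± 846). The 12 groups of each gene were then put in order of their means. Of the 110 gaps between neighbouring groups, 107 were smaller than the larger SD of the 2 groups. Sorting makes such gaps small even where distant groups differ, so this count says nothing about groups further apart.

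Fluoxetine was compared with vehicle first over both genotypes and both sexes, 20 libraries against 20. With fluoxetine 6 of the 10 genes fell and 0 rose, where 14.5% of all genes tested were called in this comparison and 7.78% were called lower. The median log2 fold change was -0.51 over the 10 genes and -0.0034 over all genes. Arc ranged from 1295 to 9014 normalized counts with fluoxetine (median 3098) and from 2985 to 8364 with vehicle (median 5470), and fell by 0.71 ± 0.16 on the log2 scale (SE; adjusted p = 0.00205 by limma), with 18 of 20 fluoxetine libraries under the vehicle mean of their genotype and sex. The ranges overlapped, with the fluoxetine median near the bottom of the vehicle range. Beside Arc, the 2 AP-1 genes Fos and Junb and the nuclear receptor gene Nr4a1 gave the most uniform falls.

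Fos had a median of 736 normalized counts with fluoxetine, from 454 to 1333, and of 1131 with vehicle, from 707 to 1810. It fell by 0.55 ± 0.12 (adjusted p = 0.000879, lower in 19 of 20). Junb, whose protein pairs with Fos, had medians of 1130 with fluoxetine and 1771 with vehicle and fell by 0.58 ± 0.10 (adjusted p = 9.71e-05, 19 of 20). Nr4a1 had medians of 1914 with fluoxetine and 2934 with vehicle and fell by 0.57 ± 0.10 (adjusted p = 9.09e-05, 19 of 20). The single library above its vehicle mean in each case was HT fluoxetine male 1. Npas4 had medians of 518 with fluoxetine and 852 with vehicle and fell by 0.53 ± 0.14 (adjusted p = 0.0062, 18 of 20). Egr2, best known for its role in myelinating glia and also induced in active neurons, fell by 0.49 ± 0.16 (adjusted p = 0.0271, 16 of 20). It kept that call in 39 of 40 fits that left out 1 library, and had an adjusted p of 0.0513 without WT fluoxetine female 5.

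The other 4 genes did not pass the test over all arms. Fosb, another partner of the Jun proteins, stood at -0.23 ± 0.12 on the log2 scale (adjusted p = 0.218), Egr4 at -0.01 ± 0.09 (adjusted p = 0.959) and Egr1 at 0.06 ± 0.07 (adjusted p = 0.636). Egr3 pointed up, at 0.19 ± 0.08 (adjusted p = 0.0852). The 4 Egr genes, whose proteins bind the same GC-rich element, thus ran from a fall of Egr2 to a positive value of Egr3 that did not pass.

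Because every fluoxetine library was deeper than every vehicle library, depth and treatment cannot be told apart across these groups. When depth entered the fit as a covariate, its slope taken from within the groups, 0 of the 6 calls remained: Arc had -0.43 (adjusted p = 0.447), Junb -0.37 (adjusted p = 0.252) and Nr4a1 -0.35 (adjusted p = 0.258). When the reads of each library were instead thinned at random to the depth of the shallowest, all 6 calls stayed. Arc then had -0.72 (adjusted p = 0.00187 by limma) and Junb -0.58 (adjusted p = 9.68e-05). Thinning evens out read number only. It leaves any other difference that follows depth in place, so it does not separate depth from treatment. Within groups, the mean deviation of the 10 genes had r = -0.17 with log2 depth over 60 libraries, and -0.04 without the 2 libraries of most extreme depth. In bulk tissue, fewer cells of a type and less RNA per cell cannot be told apart either.

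**Figure D2:**
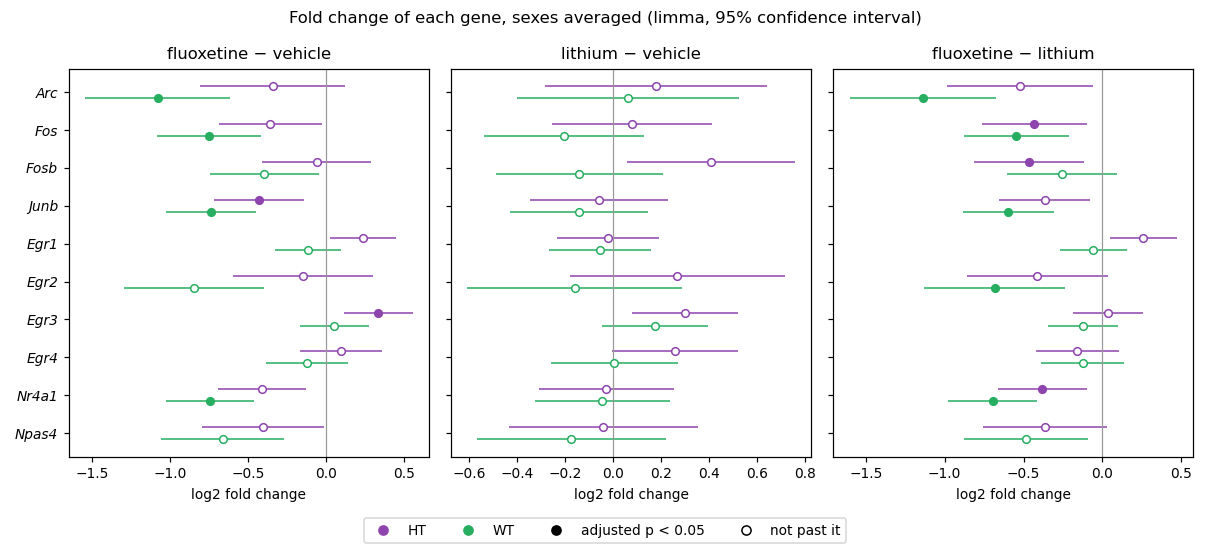
Log2 fold change (horizontal axes, with 95% confidence intervals) of each gene with the sexes averaged, for fluoxetine against vehicle, lithium against vehicle and fluoxetine against lithium, in HT and in WT. Filled points passed an adjusted p of 0.05; with fluoxetine the WT points for Arc, Fos, Junb and Nr4a1 lie between -1.08 and -0.74 and the HT points between -0.43 and -0.34.

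In HT, with the sexes averaged, fluoxetine lowered Junb and raised Egr3, and the other 8 genes did not pass, where 10.2% of all genes were called, 5.54% lower and 4.7% higher. The median log2 fold change of the 10 genes was -0.24. Junb had 2050, 1087, 1166, 1394 and 1234 normalized counts in HT fluoxetine males and 1180, 1249, 1449, 962 and 1113 in HT fluoxetine females. Junb had 1486, 1136, 1490, 2203 and 1976 in HT vehicle males and 1945, 1382, 1922, 1664 and 2101 in HT vehicle females. The female groups met only where 1449 exceeded 1382, while the male groups overlapped broadly. The difference was -0.43 ± 0.14 (limma, adjusted p = 0.0452, 9 of 10 libraries under the vehicle mean), and the call was lost without any 1 of 15 of the 20 libraries compared. Nr4a1 had -0.41 ± 0.14 and missed the threshold (adjusted p = 0.0509).

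Egr3, which maintains Arc expression after the first wave in mouse hippocampus, moved the other way in HT. It had 6783, 5102, 4400, 3847 and 3986 normalized counts in HT fluoxetine males and 6200, 6128, 6848, 4138 and 3668 in HT fluoxetine females. The HT vehicle libraries held 3634, 4045, 3929, 4331 and 3196 in males and 4855, 3624, 4483, 3850 and 3736 in females. In each sex 3 of the 5 fluoxetine libraries lay above every vehicle library and the other 2 inside the vehicle range. The rise was 0.33 ± 0.11 (adjusted p = 0.0401, higher in 9 of 10 libraries), and it was lost without any 1 of 10 of the 20 libraries compared. Egr1 had 0.24 ± 0.11 in HT (adjusted p = 0.143), with the 3 highest libraries of the series, 14468, 13811 and 11142, all in HT fluoxetine groups. Of the 16 striatal medium spiny neuron markers 3 fell in this comparison (median -0.47), where 5.54% of all genes were called lower. Their summed normalized counts were 10570 to 20940 in HT fluoxetine libraries and 10290 to 29190 in HT vehicle libraries. The median sum with vehicle was 26430 in males and 11780 in females, and with fluoxetine 11980 and 13720. Of 10 cortical excitatory neuron markers 3 rose, where 4.7% of all genes were called higher. With striatal and olfactory bulb scores as covariates Junb had -0.45 (adjusted p = 0.0488) and Egr3 0.35 (adjusted p = 0.0452).

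In WT, fluoxetine lowered 4 of the 10 genes and raised 0, where 0.208% of all genes were called and 0.124% were called lower, that is 22 genes of 17804. The median log2 fold change of the 10 genes was -0.70, and -0.0025 over all genes. Arc had 3110, 2985, 1516, 1387 and 1295 normalized counts in WT fluoxetine males and 4290, 4777, 2485, 3908 and 1296 in WT fluoxetine females. Arc had 8364, 3712, 5383, 5052 and 6458 in WT vehicle males and 3409, 3910, 4579, 5778 and 6026 in WT vehicle females. In males every fluoxetine library lay below every vehicle library, and in females 3 of the 5 fluoxetine libraries lay inside the vehicle range. Arc averaged over the sexes was 0.473 times its vehicle level (log2 -1.08 ± 0.23, limma adjusted p = 0.0239).

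Nr4a1 gave the smallest p of the 10 genes in WT. It had 1799, 1625, 1235, 1411 and 1172 normalized counts in WT fluoxetine males and 2302, 2306, 1557, 1823 and 1362 in WT fluoxetine females. The vehicle libraries had 3368, 2067, 2947, 2920 and 3595 in WT males and 1811, 2276, 2683, 3229 and 2713 in WT females. The male groups did not overlap and the female groups did. The difference was -0.74 ± 0.14 (adjusted p = 0.00499, lower in 10 of 10 libraries). Junb had -0.74 ± 0.14 (adjusted p = 0.00716, 10 of 10) and Fos -0.75 ± 0.17 (adjusted p = 0.0265, 10 of 10). The calls of Junb and Nr4a1 were kept with each of the 20 libraries left out in turn, while Arc lost its call without any 1 of 6 of them and Fos without any 1 of 9. The 6 were libraries 3 and 5 of both WT fluoxetine groups, WT vehicle female 5 and WT vehicle male 1, and for Fos also WT vehicle female 4 and WT vehicle males 3 and 5. The highest adjusted p so reached was 0.0966 for both genes. Egr2 had -0.84 ± 0.22 (adjusted p = 0.089) and Npas4 -0.66 ± 0.20 (adjusted p = 0.155).

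None of the 4 WT calls passed with depth as a covariate (Nr4a1 -0.51, limma adjusted p = 0.392). All 4 passed on thinned reads (Nr4a1 -0.75, adjusted p = 0.0074), which evens out read number only. Without the 12 libraries numbered 5, a choice made after seeing their values, 0 of the 4 passed, with log2 fold changes of -0.78 for Arc, -0.64 for Fos, -0.57 for Junb and -0.60 for Nr4a1. Without the 2 libraries that stood apart over all genes, 6 of the 10 passed, with Arc at -1.16 (adjusted p = 0.0035). The share of all genes called in these refits is not given here. None of the marker lists for other cell types had a called member in WT with fluoxetine, where 0.208% of all genes were called. At that share lists of this size would seldom hold a call, so the absence says little about cell content. Striatal medium spiny neuron markers, with 16 measured, had a median log2 fold change of 0.16, and the summed count of the list ran from 10790 to 22030 in WT fluoxetine libraries and from 10130 to 14490 in WT vehicle libraries. Olfactory bulb markers, with 11 measured, had a median of -0.76 with 0 called, and summed counts of 1854 to 16310 and of 1756 to 16500 in the same groups. With the scores of both lists as covariates all 4 calls held, Arc at -1.07 (adjusted p = 0.0162) and Nr4a1 at -0.70 (adjusted p = 0.00667).

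Within one sex the WT males carried the larger values. In WT males fluoxetine lowered 4 genes, against 0.0562% of all genes called lower. Arc fell by 1.55 ± 0.33 (log2, adjusted p = 0.0348), Fos fell by 1.14 ± 0.23 (adjusted p = 0.0319), Junb fell by 0.95 ± 0.20 (adjusted p = 0.0362) and Nr4a1 fell by 1.03 ± 0.20 (adjusted p = 0.0142). Without any 1 of WT fluoxetine males 3 and 5 or WT vehicle males 1, 4 and 5, none of the 4 passed. For 7 genes, these 4 with Fosb, Egr2 and Npas4, all 5 WT fluoxetine males lay below all 5 WT vehicle males, where 0.837% of all genes were placed so. Npas4, for example, had 457, 522, 351, 468 and 380 normalized counts in WT fluoxetine males and 1089, 631, 895, 697 and 1248 in WT vehicle males. In WT females 0 of the 10 genes and 0% of all genes were called, with 1930 genes at an unadjusted p under 0.05, and the groups of all 10 overlapped. Arc there had -0.61 ± 0.33 (adjusted p = 0.495). The sex difference of the response itself was called for 0 of the 10 genes and 0% of all genes, with 1222 genes at an unadjusted p under 0.05. For Arc it was -0.94 ± 0.46, males minus females (adjusted p = 0.725), and for Fos it was -0.78 ± 0.33 (adjusted p = 0.707). In HT 0 of the 10 genes were called in males, where 0.595% of all genes were, and 0 in females, where 6.86% were. The nearest to the threshold was Junb in HT females (-0.60 ± 0.20, adjusted p = 0.0606).

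Whether the fluoxetine response differed between HT and WT was tested by the interaction term. It was called for 0 of the 10 genes and for 0 of 17804 genes, although 786 genes had an unadjusted p under 0.05. All 10 differences were positive, HT minus WT, with a median of 0.33. The 10 genes move together in single libraries, as described below, so their like signs are not 10 separate observations. The sizes of largest magnitude were those of Arc (0.74 ± 0.33, 95% interval 0.08 to 1.39) and Egr2 (0.70 ± 0.32, 0.06 to 1.33), both with an adjusted p of 1. A larger fall in WT than in HT was therefore not shown, and the intervals do not show that the responses were alike.

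With lithium 1 of the 10 genes passed the test over all arms. Over both genotypes and sexes it raised Egr3 and lowered none of the 10, where 22.6% of all genes were called, 11.4% higher. Egr3 ranged from 3430 to 6283 normalized counts with lithium (median 4771) and from 3196 to 4973 with vehicle (median 4010), a rise of 0.24 ± 0.08 (limma, adjusted p = 0.021, 17 of 20 libraries above the vehicle mean). That call held with each of 40 libraries left out in turn and was lost with depth as a covariate (0.22, adjusted p = 0.138). In HT males all 5 lithium libraries, 4644, 5216, 5856, 4928 and 4494, lay above all 5 vehicle libraries, of which the highest held 4331. Egr3 was the only one of the 10 genes with separate groups there, where 3.82% of all genes lay wholly higher. These groups also differed in striatal content. Summed striatal marker counts ran from 11940 to 13980 in the HT lithium males (median 12060). In the HT vehicle males they ran from 10290 to 29190 (median 26430). The part of this difference in the separation was not tested. Within HT alone Egr3 had 0.30 ± 0.11 (adjusted p = 0.055) and 0 of the 10 genes were called, where 14.6% of all genes were. Within WT it was 0.17 ± 0.11 (adjusted p = 0.41), again with 0 called, where 4.57% of all genes were.

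The median log2 fold change of the 10 genes with lithium was 0.0083 over all arms. Fosb, whose stable splice form ΔFosB builds up under repeated stimulation, had 0.41 ± 0.17 in HT (adjusted p = 0.105) and -0.14 ± 0.17 in WT (adjusted p = 0.72). In HT lithium males it held 1084, 862, 1057, 518 and 469 normalized counts, with 3 libraries above every HT vehicle male, the highest of which had 739. The table sums transcripts, so the splice forms were not separated. The interaction of lithium with genotype was called for 0 of the 10 genes and 0 of all genes, with 996 genes at an unadjusted p under 0.05. For Fosb it was 0.55 ± 0.25 (adjusted p = 0.883).

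Fluoxetine was also set against lithium, with depths in WT of 32.65 to 36.52 M reads in fluoxetine males and 25.14 to 32.37 in lithium males, and of 32.67 to 35.95 in fluoxetine females and 33.92 to 35.86 in lithium females. In WT 5 genes fell with fluoxetine relative to lithium and 0 rose, where 9.76% of all genes were called, 5.41% lower. The log2 fold change was -1.14 ± 0.23 for Arc (adjusted p = 0.00113), -0.70 ± 0.14 for Nr4a1 (adjusted p = 0.00112), -0.60 ± 0.14 for Junb (adjusted p = 0.00553), -0.54 ± 0.17 for Fos (adjusted p = 0.0273) and -0.68 ± 0.22 for Egr2 (adjusted p = 0.04). All 10 genes had negative values, which are not independent because the genes move together in single libraries. Arc in WT males had 3110, 2985, 1516, 1387 and 1295 normalized counts in fluoxetine libraries and 8258, 7766, 7844, 8004 and 4610 in lithium libraries. Arc, Junb, Egr2 and Nr4a1 each had separate groups in WT males, where 1.88% of all genes lay wholly lower. In WT females, whose depths overlapped, 0 of the 10 genes were called, where 7.16% of all genes were, and the groups of all 10 overlapped. Arc there had 4290, 4777, 2485, 3908 and 1296 normalized counts in fluoxetine libraries and 6295, 4146, 3493, 4489 and 2332 in lithium libraries (log2 -0.38 ± 0.33, adjusted p = 0.523). The calls of Arc, Junb and Nr4a1 held with each of the 20 libraries left out, that of Fos was lost without any 1 of 4 and that of Egr2 without any 1 of 13. With depth as a covariate only Arc (-0.99, adjusted p = 0.014) and Nr4a1 (-0.58, adjusted p = 0.0173) of the 5 passed. In HT 3 genes fell relative to lithium and 0 rose, where 24.8% of all genes were called, 12.6% lower. These were Fos (-0.43 ± 0.17, adjusted p = 0.0478), Fosb (-0.47 ± 0.17, adjusted p = 0.0418) and Nr4a1 (-0.38 ± 0.14, adjusted p = 0.0399), each lost without any 1 of 12 or 13 libraries. The fluoxetine contrasts with lithium and with vehicle share their fluoxetine libraries, and both drugs are set against the same vehicle libraries.

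Genotype alone was compared within each treatment. Under vehicle 0 of the 10 genes were called, where 0.152% of all genes were, and the largest size was that of Fosb at -0.12 ± 0.17. Under fluoxetine 0 were called, where 0.135% of all genes were, and all 10 values were positive with a median of 0.34, from 0.21 for Fosb to 0.72 ± 0.23 for Arc (adjusted p = 0.177). Genes that move together in single libraries tend to share a sign, and HT fluoxetine male 1 lay above its group mean for all 10. Nr4a1 in fluoxetine males had 3472, 1897, 1964, 1930 and 1943 normalized counts in HT and 1799, 1625, 1235, 1411 and 1172 in WT. These 2 groups did not overlap, where 0.753% of all genes lay wholly higher in HT. Under lithium 0 were called, where 0.573% of all genes were, with a median of 0.14. Averaged over treatments, 1 gene was called, where 5.06% of all genes were, 2.52% higher in HT: Egr4 was higher in HT by 0.25 ± 0.08 (adjusted p = 0.0398, 23 of 30 libraries above the WT mean). That call was lost without any 1 of 22 libraries, and with striatal and olfactory bulb scores as covariates it had an adjusted p of 0.0933. Between males and females, averaged over arms, 0 of the 10 genes were called, where 1.19% of all genes were. The size of largest magnitude was Junb at 0.13 ± 0.08 (adjusted p = 0.361).

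A list of 32 other rapid primary response genes, 31 of them measured, was set beside the 10. Over all arms fluoxetine lowered 11 of the 31 and raised 3, where 7.78% of all genes were called lower and 6.71% higher, with a median log2 fold change of -0.15. The lowered genes with the smallest p were Arl4d (-0.42 ± 0.08, adjusted p = 0.000177), the clock gene Per1 (-0.25 ± 0.05, adjusted p = 0.000447) and the antiproliferative gene Btg2 (-0.67 ± 0.14, adjusted p = 0.000584). Klf6, a zinc-finger factor gene, rose by 0.21 ± 0.04 (adjusted p = 0.00036). The other raised genes, named after their values were seen, were Maff (0.55 ± 0.13) and Rheb (0.12 ± 0.03), the last a small GTPase that activates mTORC1. In WT fluoxetine lowered 3 of the 31 and raised 0 (median -0.26), where 0.208% of all genes were called. In HT it lowered 4 and raised 2 (median -0.06), where 5.54% of all genes were called lower and 4.7% higher. Per1 was lowered in WT by 0.36 ± 0.07 (adjusted p = 0.00814). With lithium 5 of the 31 rose and 2 fell (median 0.09), so 7 of the 31 were called, a share near the 22.6% of all genes called. Rheb rose by 0.23 ± 0.03 (adjusted p = 9.85e-07) and Ier5 by 0.26 ± 0.06 (adjusted p = 0.000753). The 2 that fell, named after their values were seen, were Klf10 (-0.25 ± 0.08, adjusted p = 0.014) and Nr4a2 (-0.35 ± 0.13, adjusted p = 0.0369), a relative of Nr4a1.

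The next list held 20 genes taken as slower activity-induced genes. How fast each responds was not tested, and splice forms, those of Homer1 among them, were not separated. Fluoxetine raised 2 of the 20 and lowered 0 over all arms (median 0.06), where 6.71% of all genes were called higher and 7.78% lower. The 2 raised were the scaffold gene Homer1, by 0.43 ± 0.07 (limma adjusted p = 8.64e-05), and the prostaglandin synthase gene Ptgs2, by 0.23 ± 0.06 (adjusted p = 0.00335). Lithium raised 9 and lowered 0 (median 0.12), where 11.4% of all genes were called higher and 11.2% lower, among them the neurotrophin gene Bdnf by 0.47 ± 0.06 (adjusted p = 9.73e-08), the neuropeptide precursor gene Vgf by 0.49 ± 0.07 (adjusted p = 3.48e-07), Ptgs2 by 0.39 ± 0.06 (adjusted p = 5.22e-07) and Homer1 by 0.49 ± 0.07 (adjusted p = 2.55e-06). Of 10 repressors and feedback regulators lithium raised 5 and lowered 0 (median 0.12), against the same shares of all genes, among them Spred1 (0.32 ± 0.05, adjusted p = 5.75e-07) and Spry4 (0.38 ± 0.06, adjusted p = 9.89e-06), both inhibitors of Ras-MAPK signalling. Fluoxetine raised 1 of the 10 and lowered 2, where 14.5% of all genes were called: it raised Spred1 (0.26 ± 0.05, adjusted p = 0.000127) and lowered Nab2 (-0.27 ± 0.05, adjusted p = 0.000463), a corepressor of Egr proteins, and Dusp6 (-0.17 ± 0.06, adjusted p = 0.0386), an ERK phosphatase. Of 26 kinases and factors upstream of immediate early genes fluoxetine raised 5 and lowered 2 (median 0.06), where 14.5% of all genes were called in either direction. Lithium raised 6 and lowered 5 of the 26 (median -0.01), where 22.6% were. With lithium, 11 of 16 striatal and 8 of 10 myelinating oligodendrocyte markers fell over the same arms, and their part in these counts was not tested.

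The 10 genes varied more between libraries of one group than most genes. Their within-group SD on the log2 scale ran from 0.247 for Egr1 to 0.544 for Arc, with a median over all genes of 0.167. Each lay above at least 98% of the genes with a mean level between 0.5 and 2 times its own. Arc spanned 7.39-fold over the 60 libraries, from 1295 in WT fluoxetine male 5 to 9573 in HT lithium female 1. Egr3 spanned 2.14-fold, the least of the 10.

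This spread was largely shared. After the group mean was taken from each gene, the first principal component held 65.3% of the variance of the 10 genes over the 60 libraries. The 45 pairs had a median Pearson r of 0.60, all of them above 0. These correlations describe libraries that share RNA preparation and depth. Arc and Junb went together most closely (r = 0.918), followed by Arc and Nr4a1 (r = 0.876) and Fos and Egr2 (r = 0.871). Egr3 followed most of the others less: its 9 pairs had a median r of 0.34, against 0.65 for the 36 pairs without it. Its r ran from 0.05 with Npas4 to 0.687 with Egr1, which lies above the median of the other pairs. Against the mean of the other 9 genes, Fos had the highest r (0.946), and then Egr2 (0.894), Junb (0.861) and Nr4a1 (0.845), with Egr3 lowest (0.374).

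**Figure D3:**
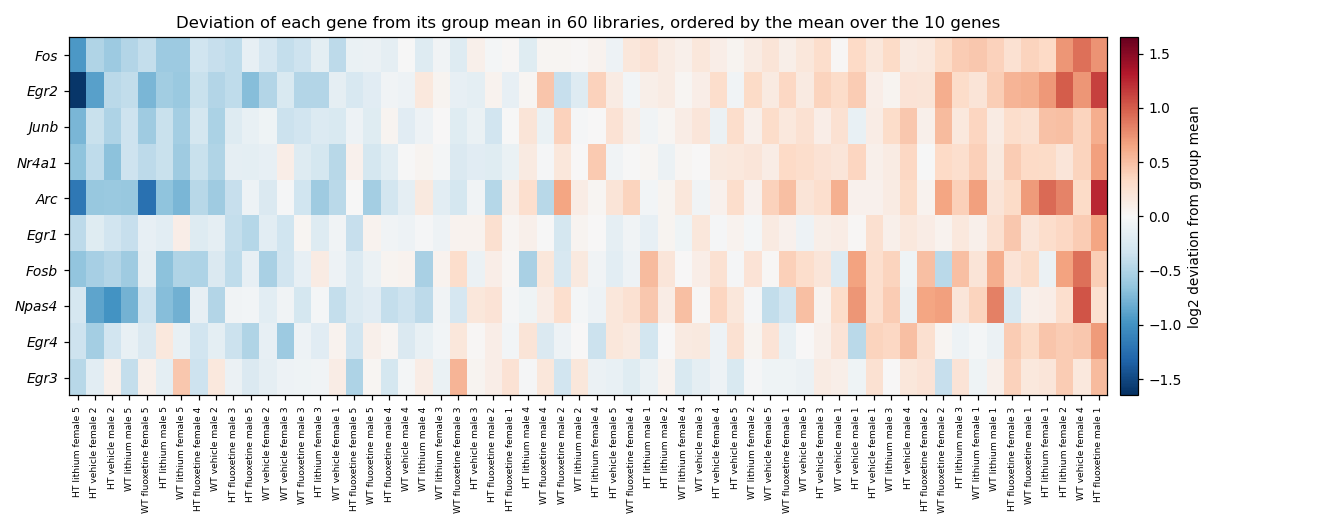
Deviation of each of the 10 genes from its group mean (colour, log2 scale) in each of the 60 libraries, ordered from left to right by the mean over the genes. Columns at both ends are nearly uniform in colour, from HT lithium female 5 at -0.73 on the left to HT fluoxetine male 1 at 0.69 on the right, and the Egr3 row follows the others least.

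Single libraries moved as a whole. In 7 of the 60 libraries all 10 genes lay above their group mean, and in 7 others all 10 lay below. HT fluoxetine male 1 was the highest, with a mean log2 deviation of 0.69 over the genes, and Arc in it was 1.24 above its group mean. It held 9014 normalized counts of Arc, where the other 4 libraries of its group held 2749 to 3587. WT vehicle female 4 followed at 0.57, with Npas4 1.04 above its group mean (1491 normalized counts, the highest of all 60 libraries). HT lithium female 2 had 0.54. At the other end, HT lithium female 5 had -0.73, with Egr2 at a deviation of -1.61, at 114 normalized counts against 576 and 703 in libraries 1 and 2 of the same group. HT vehicle female 2 (-0.52) and HT vehicle male 2 (-0.48) followed. Without HT lithium female 5 and HT fluoxetine male 1 together, the median r over pairs was 0.576.

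Deviations were not evenly spread over the numbers in the sample labels, a pattern seen only after the values were known. All 8 fluoxetine and lithium libraries numbered 5 had a negative mean deviation and all 8 numbered 1 a positive one. The 4 vehicle libraries numbered 5 were positive and the 4 numbered 2 negative. Leaving out the libraries numbered 5 took the median r over pairs to 0.604. The labels do not say what a number stands for.

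**Figure D4:**
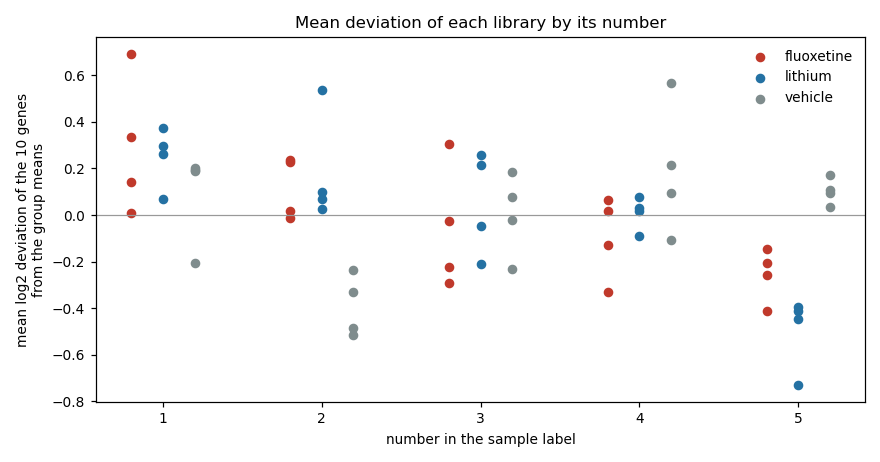
Mean log2 deviation of the 10 genes from their group means (vertical axis) for each of the 60 libraries, by the number in the sample label (horizontal axis), coloured by treatment. The 8 fluoxetine and lithium libraries numbered 5 all lie below 0, from -0.73 to -0.14, and the 4 vehicle libraries numbered 5 lie above it, from 0.04 to 0.17.

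Cell type markers and depth tracked the mean deviation of the 10 genes weakly. Over 60 libraries its Pearson r with the within-group deviation of the marker scores was between -0.06 for striatal neurons and 0.16 for astrocytes, and -0.17 for log2 depth. Other genes did follow it. Over the 12828 named genes that averaged 50 or more normalized counts, the median r was 0.013, while 85 genes exceeded 0.5 and 17 exceeded 0.7. The 10 most alike were Dusp1 (r = 0.841), Midn (0.804), Dnajb5 (0.796), Sik1 (0.79), Dusp6 (0.773), Ier2 (0.747), Arl4d (0.731), Trib1 (0.729), Nr4a3 (0.728) and Spry4 (0.726). Dusp1 encodes a phosphatase that switches off MAP kinases, and Nr4a3 is a close relative of Nr4a1. Of the 10, 6 are in the list of other rapid primary response genes and 2 in the list of repressors and feedback regulators. The list of 31 other rapid genes ran from r = -0.406 for Klf6 to r = 0.841 for Dusp1. The list of 20 slower genes ran from r = -0.363 for Cort to r = 0.611 for Dusp5. The ranges overlapped, but next after Dusp5 came Pcsk1 (r = 0.344), and most of the 31 rapid genes lay above that value. The ends of these ranges and Pcsk1 were named after their values were seen.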

How the data were processed

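The authors deposited one table of gene-level values that are never negative, a signal in units of counts divided by a size factor per library, from TruSeq Stranded mRNA libraries per the labels. Salmon 0.11.2, R 3.6.0, DESeq2 1.19.11 and the build GRCm38 are named in the submitters' processing notes, with no roles given. Dividing each column by its smallest positive value gave whole reads for 100% of values (tolerance 0.01); size factors ran from 0.85 to 1.25. Of 18088 genes, 18077 IDs matched a symbol. Genes with at least 10 normalized counts in 5 libraries (17804) were tested with limma 3.58.1 (trend) in R 4.3.3 on log2(value + 1), which understates changes of low genes. The fit had 12 group means over all 60 libraries (48 residual degrees of freedom), with Benjamini-Hochberg adjustment over all genes and calls at 0.05. edgeR 4.0.16 and DESeq2 1.42.0 on recovered reads, other scalings, filters, pseudocounts, covariates and left-out libraries were alternatives. Deviations are log2 values minus group means. Named genes were all 10 members, the 10 most and 5 least alike in deviation, and from each list the called genes with the lowest p, up to 4. The fit was tested on simulated data. The members and lists were chosen with earlier results of these data known.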

Additional observations from a re-analysis of the deposited data

Results flagged for a closer look

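In each group of 5 libraries the gap between an extreme library and its nearest neighbour was set against the range of the group. Of 120 groups checked (10 genes in 12 groups), 11 had a library far from the other 4, from 7 libraries in all. The cut-off flags about 1 in 20 groups where values are independent and normally distributed. Counts of genes that move together are not independent, so that rate is no baseline for the 11. HT fluoxetine male 1 was far above its group for 4 genes: Arc at 9014 normalized counts (next highest 3587), Fos at 1333 (next 780.3), Egr2 at 611.0 (next 290.5) and Nr4a1 at 3472 (next 1964). WT vehicle female 4 was far above its group for Npas4 at 1491 (next 693.1) and for Fosb at 905.9 (next 488.1). The remaining 5 came from 5 libraries: Npas4 in HT fluoxetine female 2 at 937.4 and Egr3 in WT lithium female 5 at 6110 were far above, as was Egr4 in WT lithium male 3 at 1114. Arc in WT lithium male 5 at 4610 and Egr2 in HT vehicle female 2 at 163.8 were far below.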

How the results depend on the processing

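Of 32 called results of single genes, 0 changed sign under any alternative, and TMM rescaling, no filter, a filter at 50 normalized counts, pseudocounts of 0.5 and 5, and DESeq2 lost none of them. Depth as a covariate lost 29, leaving out the 12 libraries numbered 5 lost 12, and fitting only the libraries compared lost 10. Tissue scores (striatal and olfactory bulb) lost 6, array weights 4, quantile normalization and thinned reads 3 each, and edgeR and leaving out the 2 libraries that stood apart 1 each. Leaving out the libraries numbered 5 and the thinning were chosen after seeing the data. Counts of the 10 genes called moved as follows. Fluoxetine against vehicle in WT (4) gave 0 with depth as a covariate and 0 without the libraries numbered 5; in HT (2) it gave 4 with array weights, 0 with the depth covariate and 1 in the libraries compared alone; over all arms (6) it gave 0 with the depth covariate. Lithium against vehicle in HT (0) gave 1 with quantile normalization, the filter at 50, striatal and olfactory bulb scores, edgeR, DESeq2, the libraries compared alone, and without the 2 libraries that stood apart, and 2 without the libraries numbered 5; over all arms (1) it gave 0 with the depth covariate. Fluoxetine against lithium in WT (5) gave 2 with the depth covariate; in HT (3) it gave 0 with the depth covariate and in the libraries compared alone, 1 with quantile normalization, array weights or tissue scores, 5 with edgeR or DESeq2, and 7 without the libraries numbered 5. HT against WT under fluoxetine (0) gave 1 with DESeq2, and over all treatments (1) gave 0 with tissue scores and 0 without the libraries numbered 5. Leaving out 1 library at a time gave 2 to 6 for fluoxetine in WT, with 6 only without WT fluoxetine male 2, 0 to 3 in HT, 0 to 2 for lithium in HT, 3 to 6 for fluoxetine against lithium in WT and 0 to 6 in HT, 0 to 1 for HT against WT over treatments, and in single sexes 0 to 4 for fluoxetine in WT males and 0 to 6 for fluoxetine against lithium in HT males. The share of all genes called under each alternative is not given here. These counts therefore do not show whether the 10 genes moved more than genes in general. The cause of these moves was not tested. With the replicate number as a block, lithium in HT gave 1 and fluoxetine against lithium in HT gave 5, and no single call was lost. Over 330 pairs of libraries with the same number the median correlation was -0.008, with 121 over 0.1 and a range from -0.634 to 0.744, and 13 of 60 libraries correlated best with their own number. Over pairs with different numbers the median was -0.001. Not every pair with the same number was over 0.1, so the numbers were not taken to pair the samples. That rule is strict and cannot show whether some libraries with the same number shared a batch. The labels do not say what the number marks. The mean deviation of the 10 genes was negative in 8 of 8 drug libraries numbered 5 and in 0 of 4 vehicle libraries numbered 5.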

Other observations

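The 5 genes whose deviations ran most opposite to the mean deviation of the 10 genes included 2 serotonin receptor genes. Htr1a, the gene of the inhibitory 5-HT1A receptor, had r = -0.61 over 60 libraries and a mean of 569 normalized counts. Htr2a, the excitatory 5-HT2A receptor of cortical neurons, had r = -0.52 and a mean of 1642. The other 3 were St6gal2 (r = -0.53), Nemp2 (r = -0.52) and Oxsm (r = -0.52). These are descriptions over libraries that share their preparation, among 12828 genes ranked.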
